A study of Mus musculus with 2 samples.

Results

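The cells described here are the vehicle-treated organoid cells in which no Hes1 transcript was read: 242 of the 968 DMSO cells, or 25%, out of 2209 cells in all. They were chosen from the DMSO library by a Hes1 value of exactly 0 and are called Hes1-zero cells. They are set against the 346 DMSO cells with a Hes1 level of at least 3 unique molecular identifiers (UMIs, each standing for 1 captured transcript) per 10000 UMIs of the cell, called Hes1-high cells. The remaining 380 DMSO cells lie between the groups. The 1241 DBZ-treated cells were split by the same Hes1 levels for a second view.

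The study treated Apc mutant mouse intestinal organoids with DBZ, a gamma-secretase inhibitor that blocks the cleavage of Notch receptors, or with the solvent DMSO. Both samples come from the C57Bl strain at an age of 3 to 4 months, and the shared protocol lists 4-OH-tam at 300 nM for both. It also lists DBZ at 10 uM for both, so the sample titles were followed for which sample received it. Each treatment is 1 library of single cells made with 10x Chromium v2 chemistry, so every interval given here covers counting error only and no difference has a replicate check.

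Notch receptors that bind a ligand on a neighbouring cell are cut by gamma-secretase and release a fragment that joins the DNA-binding factor RBPJ and switches on repressors such as Hes1. In the intestine, Hes1 holds back the factors that turn a progenitor into a secretory cell, so cells that receive little Notch signal tend to become Paneth, goblet, tuft or enteroendocrine cells. Enteroendocrine cells pass through a Neurog3 stage, followed by Neurod1, before they make granule proteins and hormones. Loss of Apc leaves the Wnt pathway switched on without ligand.

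The promoters of Neurod1 and Id2 are shown because Neurod1 stands for the endocrine factors that were higher in Hes1-zero cells and Id2 for the group of BMP response genes that was lower. Both run 5′ to 3′ from 250 bases before to 50 bases after the start in RefSeq on GRCm38.p6. Neurod1 (chr2:79456587-79456886, minus strand) encodes a helix-loop-helix factor of endocrine cells. The capitals mark an N box, CACNAG, the kind of sequence that HES1 binds, at bases 250 to 255. Id2 (chr12:25096043-25096342, minus strand) encodes an inhibitor of helix-loop-helix factors. Its capitals mark GGCGCC, a sequence bound by BMP-activated Smad proteins, at bases 20 to 25.
Neurod1: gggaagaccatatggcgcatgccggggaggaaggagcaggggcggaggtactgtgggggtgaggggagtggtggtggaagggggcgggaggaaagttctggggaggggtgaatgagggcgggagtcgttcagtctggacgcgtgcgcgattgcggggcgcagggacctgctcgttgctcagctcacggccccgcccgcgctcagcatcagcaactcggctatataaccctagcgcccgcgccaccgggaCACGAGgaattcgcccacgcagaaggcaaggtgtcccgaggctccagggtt
Id2: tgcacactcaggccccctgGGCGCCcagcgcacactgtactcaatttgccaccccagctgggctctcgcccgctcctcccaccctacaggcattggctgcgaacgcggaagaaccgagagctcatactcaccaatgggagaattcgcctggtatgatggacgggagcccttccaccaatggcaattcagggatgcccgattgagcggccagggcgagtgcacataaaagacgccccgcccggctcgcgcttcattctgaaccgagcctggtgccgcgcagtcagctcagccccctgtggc
Both strands were searched. Of 27025 mouse genes with promoters of this length, 46.1% had an N box in at least 1 of them. The N box was found for 12 of 24 enteroendocrine genes, among them Neurod1 but not Neurog3, Isl1 or Chgb. It was also found for 3 of 6 BMP response genes. Id2 is among these, with the N box at bases 267 to 272 on the other strand and not capitalised. GGCGCC was found for 13.4% of all genes, 2 of 6 BMP response genes (Id2 and Id4) and 8 of 24 enteroendocrine genes. GTGGGAA, the core of the RBPJ motif, was found for 7.25% of all genes and 2 of 6 Notch target genes, Hes7 and Lfng. Promoters were searched for 6 of 9 Notch target, 6 of 9 BMP response and 24 of 26 enteroendocrine genes. Hes1, Sox9, Dtx4, Id1, Smad7 and Bambi were among those not searched. A match says only that these letters are present.

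Depth was close in Hes1-zero and Hes1-high cells and higher in the cells between, whose values given below are not depth matched. Hes1-zero cells held a median of 9931 UMIs (5241 to 40526), cells between the groups 13124.5 and Hes1-high cells 10429.5 (6358 to 56915). Genes read per cell had a median of 2846 in Hes1-zero cells and 3034.5 in Hes1-high cells. The median mitochondrial share was 4.44% in Hes1-zero cells and 4.40% in Hes1-high cells. The median share of ribosomal protein transcripts was 26.3% in Hes1-zero cells and 26.1% in Hes1-high cells. The epithelial list (Epcam, keratins and cadherin among its 7 genes) was seen in full, and all 242 Hes1-zero cells held Epcam and Krt8 UMIs. The immune and endothelial lists each had 1 gene in the table, Cd68 and Pecam1. Their mean levels were 0.139 and 0.0326 per 10000 in Hes1-zero cells, against 0.131 and 0.0150 in Hes1-high cells. None of the 7 genes of the fibroblast list was in the table, so that list could not be analysed. Scrublet marked 6 DMSO cells as doublets, 2 in each class. Of 3 barcodes found in both libraries, 1 belonged to a Hes1-zero cell.

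A count of 0 does not show that a cell had no Hes1 transcript. Hes1 (chr16:30064384-30067796 on mm10) averaged 7.65 UMIs per 10000 in Hes1-high cells, with a median of 7 UMIs per cell and a range of levels of 3.01 to 32.1. In the cells between the groups it averaged 1.53 per 10000. At the median depth of Hes1-zero cells, 0 UMIs allows a level of up to 3.02 per 10000, and over the class this limit ran from 0.740 to 5.72. It was at most 3 in 116 of the 242 cells, those with at least 10000 UMIs. Pooled over all Hes1-zero cells the same limit works out at 0.0110 per 10000. The rule chose cells at 0, so this pooled value does not bound their Hes1 level. Just outside the rule for 0 stood 147 DMSO cells with a single Hes1 UMI, at levels of 0.244 to 1.85. Around the upper limit, the 5 lowest Hes1-high cells stood at 3.01 to 3.05 and the 5 highest cells under it at 2.97 to 2.996.

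Changes are given as the log2 ratio of mean levels, Hes1-zero over Hes1-high, after adding 0.05 per 10000 to each mean. A gene counts as past the fold at 1.5-fold. Of 8327 genes seen in at least 10% of either class, 139 were higher in Hes1-zero cells past the fold, which is 1.67%, and 150 were lower, which is 1.8%. Over all 12649 genes other than Hes1 with a UMI in DMSO cells, 2.66% were higher and 1.87% lower past the fold, with a median change of −0.03. By any amount, 5748 of them were higher and 6899 lower, the background for the direction counts of lists below. The genes at the top of this ranking were products of secretory cells, and those at the bottom included BMP and Wnt response genes.

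Enteroendocrine genes were higher in Hes1-zero cells almost without exception. Of the 23 listed genes with a UMI in DMSO cells, 22 were higher past the fold and 1, the neurotensin gene Nts, was lower past it. Their median change was 2.15, and 2.16 with Hes1-high cells weighted to the same depth. Several of these genes were carried by the same few cells, described below, so the count is not of separate observations. The list was drawn up with earlier results of these data known. The hormone genes Cck, Gip and Gcg had no UMI in the DMSO library and are listed at 0.

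The factors that start the endocrine programme were read in more Hes1-zero than Hes1-high cells. Neurod1 was read in 23 of 242 Hes1-zero cells, or 9.50% (6.12 to 13.9, exact 95% interval), in 11 of 380 cells between and in 1 of 346 Hes1-high cells, or 0.289% (0.00732 to 1.60). Its mean level was 0.341 per 10000 in Hes1-zero cells, 0.0592 in cells between and 0.0155 in Hes1-high cells, a change of 2.58. With each cell thinned to 5000 UMIs, Neurod1 was still read in 6.20% of Hes1-zero cells (3.51 to 10.0) and 0.289% of Hes1-high cells (0.00732 to 1.60), so the intervals did not overlap at equal depth. Nkx2-2, another endocrine transcription factor, was read in 20 Hes1-zero cells and 3 Hes1-high cells. Insm1, a zinc finger factor of endocrine progenitors, was read in 14 Hes1-zero cells and 3 Hes1-high cells. Neurog3, which commits a progenitor to the endocrine fate, was read in 8 Hes1-zero cells with 94 UMIs, in 3 cells between with 14 UMIs and in 3 Hes1-high cells with 13 UMIs. Few cells carried Neurog3 in any class, and a few of them carried many copies.

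For several granule proteins and hormones, a few cells held most of the UMIs. Chgb (chr2:132781278-132795079), which encodes the granule protein chromogranin B, had 850 UMIs in Hes1-zero cells, 116 in cells between and 23 in Hes1-high cells, with mean levels of 3.48, 0.305 and 0.0615 per 10000 and a change of 4.98. It was read in 10.3% of Hes1-zero cells (6.80 to 14.9) and 3.76% of Hes1-high cells (2.02 to 6.34). A single cell held 477 of the 850 UMIs. Reg4, a lectin of endocrine and other secretory cells, averaged 7.0 per 10000 in Hes1-zero cells and 0.0826 in Hes1-high cells, yet it was read in 27 of 242 and 29 of 346 cells, and 1 Hes1-zero cell held 1226 of its 1637 UMIs. Ghrl, which encodes ghrelin, averaged 3.73 per 10000 in Hes1-zero cells and 0.0557 in Hes1-high cells, with 98.9% of the Hes1-zero level in 5 cells. These means therefore rest on a handful of cells that carried very high levels. By counts and levels, the top Reg4, Chgb, Chga, Tph1 and Tac1 values share the depth of 1 cell, 10920 UMIs. They appear to come from that cell, so these genes are not separate observations. Genes spread over more cells were Cpe and Pcsk1n, which act in prohormone processing, at changes of 2.88 and 3.31 and read in 17.8% and 12.4% of Hes1-zero cells, against 7.51% and 3.47% of Hes1-high cells.

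**Figure D1:**
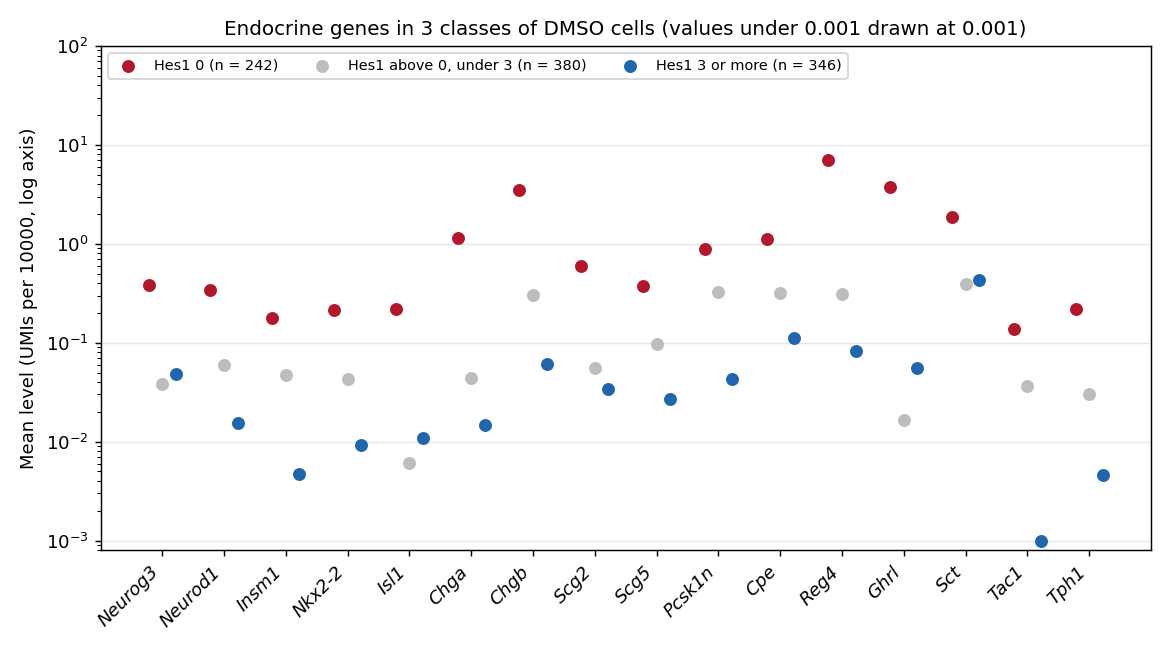
Mean levels of 16 endocrine genes (UMIs per 10000, log axis) in the DMSO cells with Hes1 at 0, above 0 and under 3, and at 3 or more. The red points of the Hes1-zero cells are the highest for all 16 genes, at 3.48 per 10000 for Chgb against 0.0615 in Hes1-high cells.

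Sct, which encodes secretin, shows how few cells set such a mean. It averaged 1.88 per 10000 in Hes1-zero cells, 0.388 in cells between and 0.431 in Hes1-high cells, but was read in 19.0% of Hes1-zero and 19.1% of Hes1-high cells. Outside the secretory-marker cells defined next, its change turned to −1.0, and among cells with at least 10000 UMIs to −0.34. Nts, the exception, had 5 UMIs in Hes1-zero cells and 169 in Hes1-high cells, at mean levels of 0.0178 and 0.372 per 10000.

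The members were then sorted by what they carried. Endocrine-marker cells had at least 3 UMIs of Chga plus Chgb, and defensin-rich cells had at least 100 per 10000 of alpha-defensin transcripts. Among Hes1-zero cells, 24 were endocrine-marker cells, or 9.92% (6.46 to 14.4), and 12 were defensin-rich, or 4.96% (2.59 to 8.50), with 6 counted in both. A further 8 cells had neither but held a UMI of Neurog3, Neurod1, Insm1 or Nkx2-2, at mean levels of 6.24 per 10000 for Neurog3 and 2.98 for Neurod1 and with no Chgb UMI. The remaining 204 cells, or 84.3% (79.1 to 88.6), met none of these criteria. The 24 endocrine-marker cells averaged 35.0 per 10000 for Chgb and 17.5 for Sct, against 0.0141 and 0.116 in the 204 cells. Summed alpha-defensins averaged 266 per 10000 in the 24 cells, 6 of which were also defensin-rich, and 2.69 in the 204 cells, with a median of 2.06. The chromogranins, alpha-defensins and endocrine factors chose these cells, so their levels in each kind follow from the sorting. Sct was not used to sort them. Most cells without a Hes1 UMI thus fell under these marker limits.

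Read from the other side, endocrine-marker cells had the largest share without Hes1 among the marker sets examined, which overlap and differ in depth. Of 36 endocrine-marker DMSO cells, 24 had no Hes1 UMI, or 66.7% (49.0 to 81.4), and 2 were Hes1-high. Of the other 932 DMSO cells 218 had none, or 23.4% (20.7 to 26.2), and 27.5% when weighted to the same depth. After thinning to 5000 UMIs the shares were 69.4% (51.9 to 83.7) in endocrine-marker cells and 40.0% (36.9 to 43.2) in the others. Hes1 averaged 0.634 per 10000 in the 36 cells and 3.44 in the others. Cells with a UMI of any of the 4 endocrine factors were without Hes1 in 30 of 62 cases, or 48.4% (35.5 to 61.4), against 23.4% (20.7 to 26.3) of the rest.

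Defensin-rich cells were less clear cut. Without a Hes1 UMI were 12 of 33, or 36.4% (20.4 to 54.9), against 24.6% (21.9 to 27.5) of the other DMSO cells, and these intervals overlapped. The defensin-rich cells were deeper, with a median of 16140 UMIs against 11079. After thinning the shares were 63.6% (45.1 to 79.6) and 40.3% (37.2 to 43.5), a narrow gap between intervals from a single random draw. The thinned interval of endocrine-marker cells, 69.4% (51.9 to 83.7), overlapped that of defensin-rich cells, and 14 DMSO cells were in both sets. Only 3 of the 33 were Hes1-high. The same split of the DBZ library put 158 of 198 endocrine-marker cells, or 79.8% (73.5 to 85.2), and 166 of 235 defensin-rich cells, or 70.6% (64.4 to 76.4), among cells without Hes1, against 49.8% (46.7 to 52.8) and 50.8% (47.7 to 53.9) of the other DBZ cells.

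**Figure D2:**
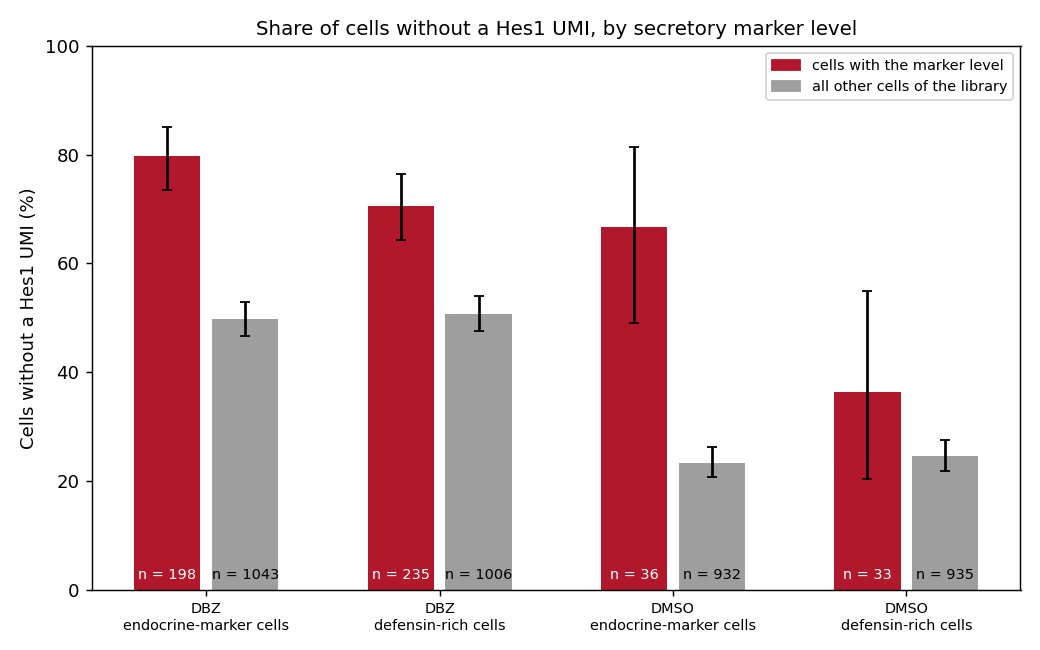
Share of cells without a Hes1 UMI (%) among endocrine-marker and defensin-rich cells (red) and all other cells of the same library (grey), with exact 95% intervals for counting error. The share is 79.8% and 66.7% in DBZ and DMSO endocrine-marker cells, above the other cells of each library, while the DMSO defensin-rich interval of 20.4% to 54.9% overlaps that of the other cells.

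Cells with a UMI of Mki67, a marker of dividing cells, were without Hes1 in 15.6% of 173 cases, against 27.0% of the other cells, but in other cells of the same depth the share was 14.6%. Cells with a UMI of Lgr5, the stem cell receptor, were without Hes1 in 21.8% of 583 cases (18.5 to 25.4), against 29.9% (25.3 to 34.7) of those without Lgr5, or 27.1% at matched depth. After thinning the Lgr5 intervals overlapped, at 38.4% (34.5 to 42.5) and 45.2% (40.1 to 50.3).

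Paneth cell products were higher in Hes1-zero cells on average, and hardly so in the typical cell. Of 13 listed genes, 11 were higher and 2 lower, with 7 higher past the fold and a median change of 0.63. Defa20, an antimicrobial alpha-defensin, averaged 29.6 per 10000 in Hes1-zero cells, 15.4 in cells between and 3.62 in Hes1-high cells, a change of 3.01. It was nevertheless read in 58.3% of Hes1-zero and 56.1% of Hes1-high cells, the 5 richest Hes1-zero cells held 79.1% of the summed level, and the per-cell median was 0.713 in Hes1-zero cells and 0.566 in Hes1-high cells. Defa24 averaged 16.8, 17.1 and 3.70 per 10000 in the 3 classes, so cells between were as high as Hes1-zero cells. Defa21 and Defa22 gave changes of 3.52 and 3.06. They averaged 9.94 and 14.0 in Hes1-zero cells, and 10.2 and 12.3 in cells between. Alpha-defensin genes are near-identical copies, and how reads were split between them is uncertain. Itln1, an intelectin of Paneth and goblet cells, stood at 19.2 per 10000 in Hes1-zero cells and 18.8 in Hes1-high cells. Of 8 goblet genes with a UMI 4 were higher, all past the fold, and 4 lower, none past it. Tff3, a trefoil peptide, averaged 2.38 in Hes1-zero cells, 2.41 in cells between and 0.464 in Hes1-high cells. Its change over Hes1-high cells was 2.24, with 93.9% of the Hes1-zero level in 5 cells. Muc2 was listed at 0.

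The other regulators of the secretory fate differed little. Of 14 listed regulators with a UMI, 10 were higher and 4 lower, and the 4 past the fold were the endocrine factors Neurog3, Neurod1, Insm1 and Nkx2-2. Atoh1, which starts all secretory lineages, was listed at 0 in the DMSO cells, as were Pax4, Spdef and Gfi1. Hes6, an antagonist of Hes1, averaged 4.09 per 10000 in Hes1-zero cells and 5.44 in Hes1-high cells, a change of −0.41. Sox4, a progenitor factor, stood at 10.0 in Hes1-zero cells and 10.3 in Hes1-high cells. Foxa1, Foxa3, Xbp1 and Klf4, factors of secretory cells, changed by 0.03, −0.17, 0.12 and 0.02. Bhlha15, Creb3l1, Creb3l4 and Foxa2 were all under 0.2 per 10000, with changes of 0.26, −0.04, 0.13 and 0.14.

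Notch target genes other than Hes1 were slightly lower and none passed the fold. Of 8 with a UMI, 6 were lower and 2 higher, with a median of −0.19. Sox9, a crypt progenitor factor, averaged 3.12 per 10000 in Hes1-zero cells and 3.79 in Hes1-high cells, a change of −0.28. Nrarp, a feedback inhibitor of Notch, was read in 6 of 242 Hes1-zero cells, or 2.48% (0.915 to 5.32), and 28 of 346 Hes1-high cells, or 8.09% (5.44 to 11.5), with 7 and 37 UMIs. Thinned to equal depth its shares were 2.07% (0.674 to 4.76) and 2.89% (1.39 to 5.25), which overlapped. Lfng, a glycosyltransferase of Notch, Bcl2l1, a survival gene, and Dtx4, a ubiquitin ligase, changed by −0.26, −0.22 and −0.16. Hes7 and Notch3 changed by 0.03 and 0.10 on 2 and 6 Hes1-zero UMIs, and Olfm4 had no UMI in Hes1-zero cells and 2 in Hes1-high cells. Besides Hes1, no listed Notch target separated the classes past the fold, so the name Notch-low rests here on Hes1 alone.

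Receptors and ligands were also close to even, at 3 higher and 5 lower of 8, with none past the fold and a median of −0.02. The receptor gene Notch1 averaged 0.211 per 10000 in Hes1-zero cells and 0.289 in Hes1-high cells, a change of −0.38, and Notch2 changed by −0.36. The ligand genes Dll1, Jag1 and Jag2 changed by −0.16, 0.09 and −0.01, and Notch4 by −0.04. Dll4 had 6 UMIs in Hes1-zero cells and 2 in Hes1-high cells, a change of 0.48. Of 16 machinery genes 8 were higher and 8 lower. Rbpj, the DNA-binding partner of cleaved Notch, averaged 0.279 in Hes1-zero cells and 0.410 in Hes1-high cells, a change of −0.48. Mfng, a fringe glycosyltransferase, was past the fold at 0.76 on 13 UMIs in Hes1-zero cells and 5 in Hes1-high cells.

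BMP response genes were lower as a group. All 9 listed genes were lower in Hes1-zero cells and 5 of them past the fold, with a median change of −0.63, against −0.03 over all genes. Depth matching left the median at −0.63. Id1 (chr2:152736251-152737410), an inhibitor of helix-loop-helix factors that BMP signalling induces, averaged 2.04 per 10000 in Hes1-zero cells, 2.87 in cells between and 4.72 in Hes1-high cells, a change of −1.19. It was read in 68.2% of Hes1-zero cells (61.9 to 74.0) and 86.4% of Hes1-high cells (82.3 to 89.8). After thinning these were 46.3% (39.9 to 52.8) and 72.3% (67.2 to 76.9). Id1 was lower both among Hes1-zero cells of the median depth or less, by a change of −1.06, and among deeper ones, at −1.38. Among the kinds of Hes1-zero cell, it averaged 0.942 per 10000 in endocrine-marker cells, 0.551 in defensin-rich cells and 2.22 in the 204 cells that met none of the marker criteria.

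The related Id2 averaged 4.38, 5.21 and 7.33 per 10000 in the 3 classes, a change of −0.74, and Id3 averaged 9.24, 11.7 and 13.4, a change of −0.54. Smad7, an inhibitor of BMP and TGF-beta signalling, averaged 0.177, 0.321 and 0.544, a change of −1.39, and was read in 14.5% of Hes1-zero cells (10.3 to 19.5) and 37.6% of Hes1-high cells (32.5 to 42.9). For these genes, as for Id1, the cells between the classes had intermediate means. Smad6 and Bambi, further pathway inhibitors, changed by −0.48 and −0.33, and the ligand gene Bmp4 by −0.63. Id4 changed by −0.42 but was lowest in the cells between, at 0.0989 per 10000. Atoh8 had 3 UMIs in Hes1-zero cells and 21 in Hes1-high cells.

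**Figure D3:**
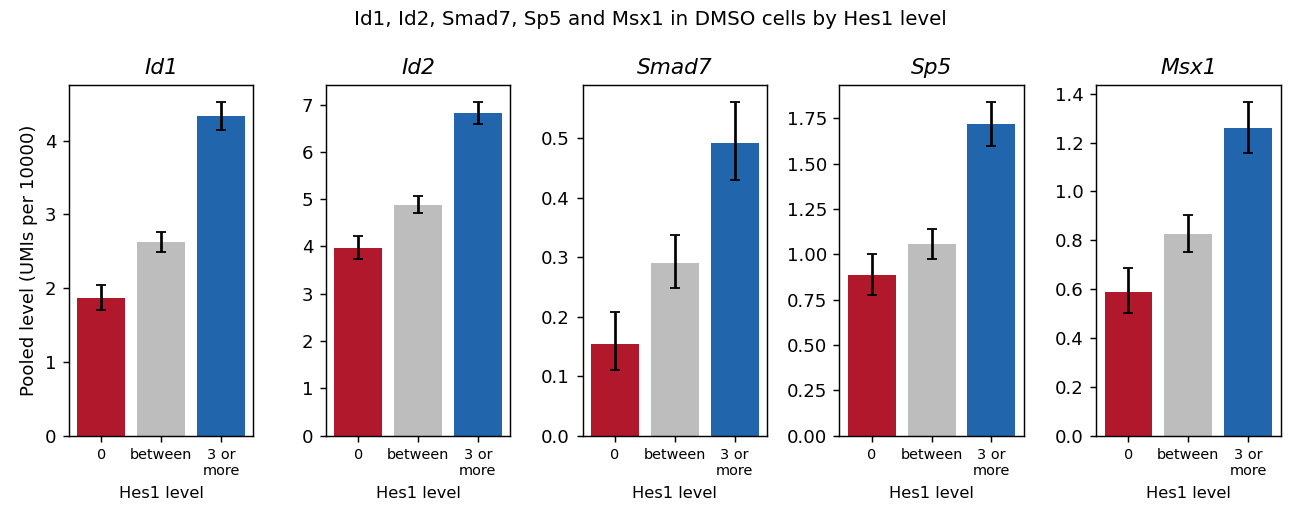
Pooled levels (UMIs per 10000) of Id1, Id2, Smad7, Sp5 and Msx1 in DMSO cells with Hes1 at 0, between, and at 3 or more, with exact Poisson 95% intervals for counting error and a separate axis per gene. Each gene steps up over the 3 classes, Id1 at 1.87, 2.62 and 4.33 per 10000.

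Wnt targets leaned lower by a smaller amount. Of 22 genes 18 were lower and 4 higher, with 2 of the lower ones past the fold and a median of −0.19. Among all 12649 genes 6899 were lower. Sp5, a transcription factor switched on by Wnt, averaged 1.03, 1.22 and 1.89 per 10000 in the 3 classes, a change of −0.84. Axin2 and Rnf43, feedback inhibitors of the pathway, changed by −0.45 and −0.55, and the nuclear partner Lef1 by −0.52. Dkk2, a secreted Wnt modulator, was past the fold at −0.84, on 35 UMIs in Hes1-zero cells and 100 in Hes1-high cells. Prox1, a homeobox factor, averaged 5.48 per 10000 in Hes1-zero cells and 6.79 in Hes1-high cells, a change of −0.31. Lgr5 averaged 1.23 in Hes1-zero cells and 1.29 in Hes1-high cells, a change of −0.07. The stem cell list of 16 genes had 12 lower and 4 higher, none past the fold, and a median of −0.06.

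Division genes gave different answers under different treatments of depth. Of 24 mitosis genes 21 were lower, with a median of −0.31. At matched depth 12 were lower and 12 higher, with a median of 0.0027, but the median was −0.44 with cells thinned to 5000 UMIs and −0.36 in cells with at least 10000 UMIs. The replication list had 12 genes on each side.

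Several other genes stood at the bottom of the ranking. Ptn, which encodes the growth factor pleiotrophin, averaged 0.114 per 10000 in Hes1-zero cells and 0.501 in Hes1-high cells, a change of −1.74. Pycr1, an enzyme of proline synthesis, averaged 0.307 in Hes1-zero cells and 0.858 in Hes1-high cells, a change of −1.35. The transcription factor genes Msx1, Tbx3 and Zfp503 changed by −0.97, −0.95 and −0.93. Vim, which encodes vimentin, averaged 9.23 in Hes1-zero cells and 14.9 in Hes1-high cells, a change of −0.69. Pglyrp1, a peptidoglycan-binding protein of innate defence, changed by −0.70, and Sectm1b, the corepressor gene Tle3 and the kinase gene Ikbkb by −0.69, −0.68 and −0.68.

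The comparison was repeated without the secretory-marker cells, leaving 212 Hes1-zero and 342 Hes1-high cells. Then 90 genes were higher past the fold, which is 1.08%, and 207 lower, which is 2.49%. Over all 12649 genes the shares were 1.38% higher and 2.51% lower. Of the higher genes, 69 were past the fold both ways, from 139 with all cells and 90 without secretory-marker cells. Of the lower genes besides Hes1, 118 were past it both ways, from 149 and 206. The enteroendocrine median was then 0.22, with 9 of 23 genes still higher and 2 lower past the fold. The Paneth median was 0.024, with 1 of 13 genes higher past the fold. The BMP response median was −0.62, with 6 of 9 genes lower past the fold. Id1 changed by −1.07, Smad7 by −1.34 and Sp5 by −0.88 there. The lower BMP response group was therefore about as large outside the secretory-marker cells.

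**Figure D4:**
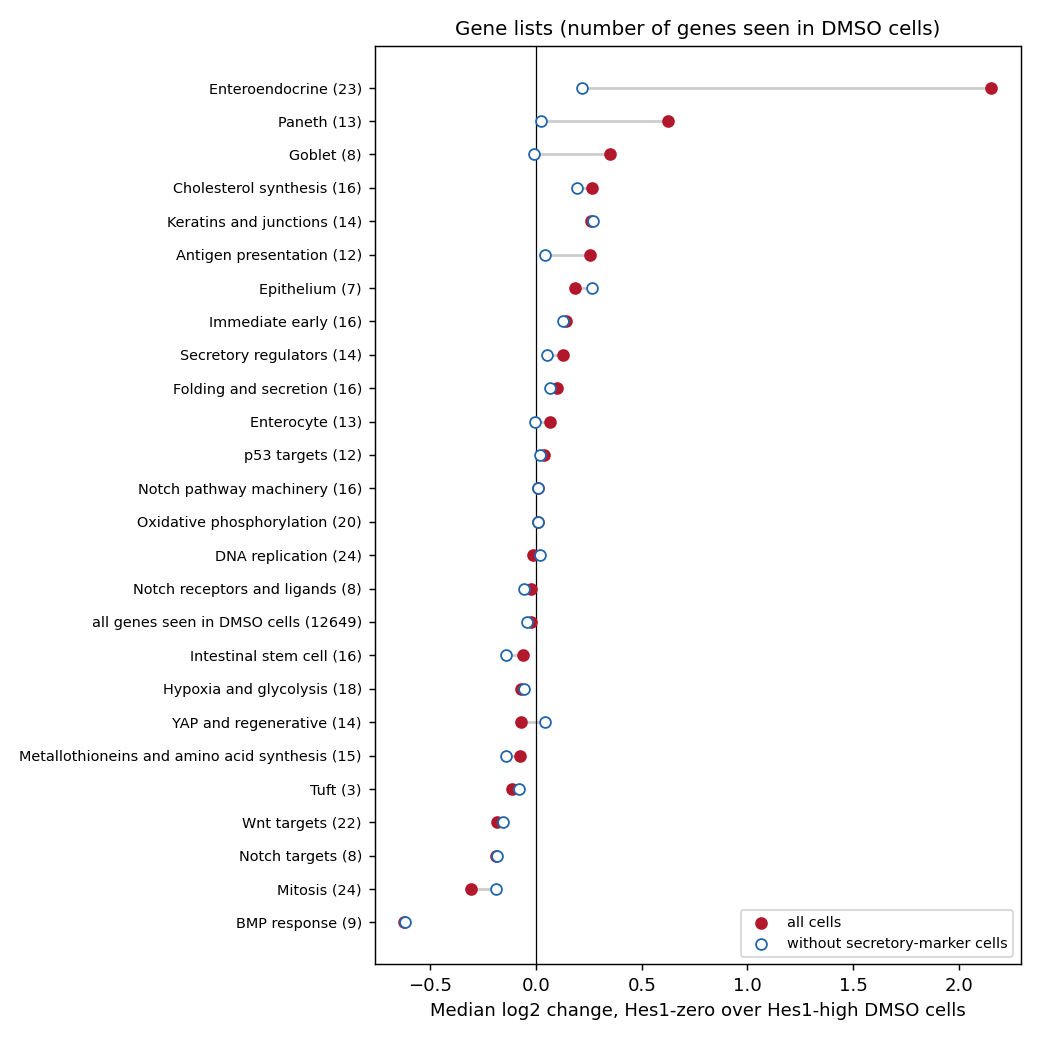
Median log2 change of each gene list, Hes1-zero over Hes1-high DMSO cells, for all cells (filled) and without secretory-marker cells (open), with the number of genes in brackets. The enteroendocrine median moves to 0.22 from 2.15 when those cells are left out, while the BMP response median stays near −0.62.

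A ranking of genes among these non-secretory cells was added after the data were seen. At its top was F3, which encodes tissue factor, at a change of 1.42 without secretory-marker cells. Over all cells F3 averaged 0.991 per 10000 in Hes1-zero cells, 0.689 in cells between and 0.334 in Hes1-high cells, and was read in 33.5% of Hes1-zero and 16.2% of Hes1-high cells. Areg, an EGF receptor ligand, averaged 3.33, 1.83 and 1.76 in the 3 classes. It was read in 129 of 242 Hes1-zero and 180 of 346 Hes1-high cells, with per-cell medians of 0.602 and 0.466. Without secretory-marker cells it changed by 1.08. The urokinase receptor gene Plaur, the AP-1 gene Fosl1 and the membrane mucin gene Muc13 changed by 1.00, 0.89 and 0.93 there. Cldn4, a tight junction claudin, was the most abundant of these, at 15.6, 12.0 and 8.70 per 10000 in the 3 classes over all cells.

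Keratin and junction genes leaned the same way. Of 14 genes 13 were higher, 2 of them past the fold, with a median of 0.26, where 5748 of all 12649 genes were higher. Krt8, a keratin of simple epithelia, averaged 24.1 per 10000 in Hes1-zero cells and 17.2 in Hes1-high cells, a change of 0.49. Krt20, a keratin of differentiated cells, was past the fold at 1.35 on 23 and 12 UMIs. Cholesterol synthesis genes were higher in 14 of 16 cases, with a median of 0.26 and 1 gene past the fold, Hmgcs1, an early enzyme of the pathway, at 0.60. Without secretory-marker cells their median was 0.196 and none was higher past the fold.

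The DBZ library gave the same contrast in cells the rule did not use. Its 677 Hes1-zero cells, 54.6% of that library, were set against its 91 Hes1-high cells. Of 8460 genes tested, 418 were higher past the fold, which is 4.94%, and 468 lower, which is 5.53%. Of the 139 genes higher in DMSO Hes1-zero cells 109 were tested in DBZ cells, where 86 were higher, or 78.9%, against 43.9% of all genes tested in both. Of the 149 lower genes 127 were tested and 95, or 74.8%, were lower. Fewer were past the fold the same way, at 52 of the 109 higher and 25 of the 127 lower genes. Lower was also the commoner direction among all 7907 genes tested in both, of which 3475, or 43.9%, were higher. Over all genes seen in DMSO cells, 6436 were lower and 5931 higher in DBZ Hes1-zero cells. Without secretory-marker cells 41 of 68 higher genes, or 60.3%, and 130 of 185 lower genes, or 70.3%, kept their direction. Of all genes, 47.7% were higher there. Past the fold the same way were 13 of the 68 and 21 of the 185. The libraries share no cells, and the shares were not tested.

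By group, all 23 enteroendocrine genes seen in DMSO cells were higher in DBZ Hes1-zero cells, with a median of 2.46, and 8 of 9 BMP response genes were lower, with a median of −0.59. Id1 averaged 1.21 per 10000 in DBZ Hes1-zero and 2.52 in DBZ Hes1-high cells, a change of −1.02, and Id2 changed by −0.87. Smad7 changed by −0.30 there, against −1.39 in DMSO cells, and Bambi was higher at 0.52. Wnt targets were lower in 16 of 22 cases in DBZ cells, with a median of −0.26, and in 13 of 22 with a median of −0.037 without secretory-marker cells. Secretory-marker cells made up 244 of the 677 DBZ Hes1-zero cells and 8 of the 91 DBZ Hes1-high cells. Without them the DBZ enteroendocrine median was 0.43, with 20 of 23 genes higher, and the BMP response median −0.39, with 9 of 9 lower.

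Some other genes differed between the libraries in direction, without a test of that difference. Keratin and junction genes were higher in 5 of 14 cases in DBZ cells, or 10 of 14 without secretory-marker cells, and in 13 of 14 cases in DMSO cells. Cholesterol synthesis genes were higher in 8 of 16 cases in DBZ cells, or 5 of 16 without secretory-marker cells, and in 14 of 16 in DMSO cells. Cldn4 changed by −0.45 in DBZ Hes1-zero over Hes1-high cells, against 0.83 in DMSO cells, and Areg by −0.03 against 0.90. F3 was higher in both, at 0.88 in DBZ cells and 1.44 in DMSO cells.

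**Figure D5:**
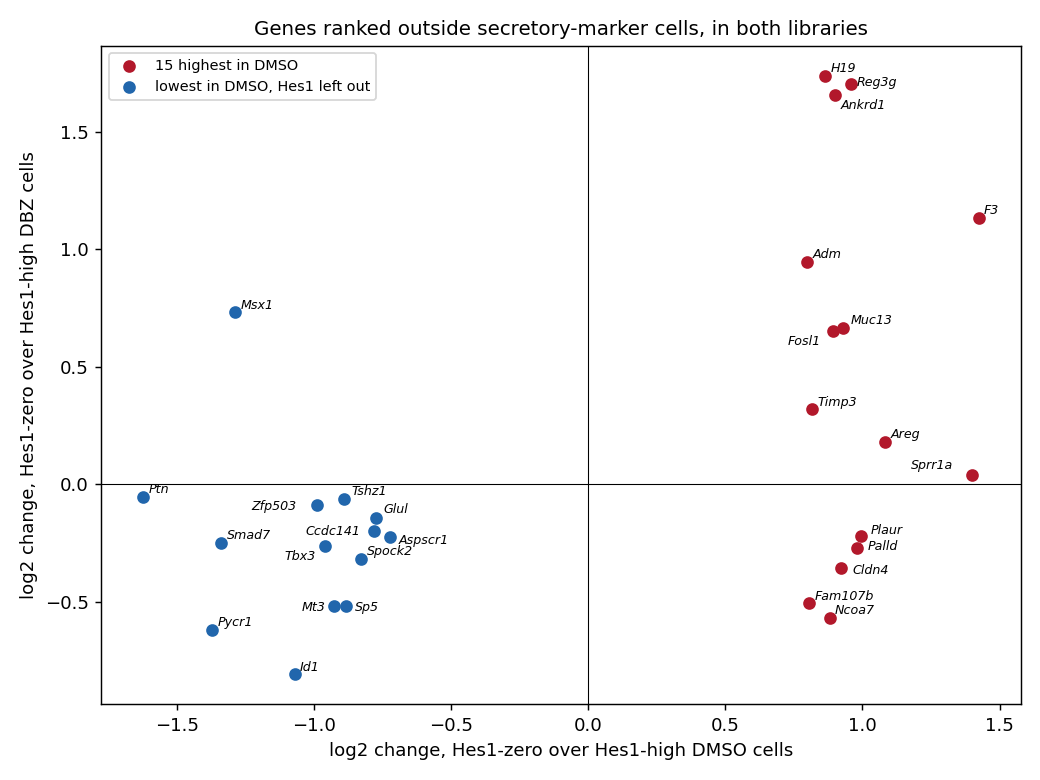
Log2 change of Hes1-zero over Hes1-high cells in DMSO (horizontal) and DBZ (vertical) cells, both without secretory-marker cells, for the 15 highest genes and the lowest genes of the DMSO ranking, which chose the points by the horizontal values. F3 lies high in both, Id1 low in both, and Msx1 at −1.29 and 0.73 lies on opposite sides.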

How the data were processed

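Single-cell libraries of DMSO- and DBZ-treated organoids were used, 1 of each. The submitters' processing notes name mm10, Cell Ranger 2.1.1 and Seurat. The deposited table holds natural log values, ln(1 + UMIs per 10000), for 13373 genes in 968 DMSO and 1241 DBZ cells, whereas the series text gives 3000 cells each. All 7553435 values above 0 were whole multiples of 1 UMI per cell within 0.01, so UMIs were recovered. Total depth was 13083018 UMIs in DMSO and 16168229 in DBZ cells.

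With 1 library per treatment no test was run and no p-value is given. Shares have exact Clopper-Pearson and pooled levels exact Poisson 95% intervals. They cover counting error only, and a count of 0 allows up to 3 counts. Depth was matched over 10 bins or by thinning to 5000 UMIs. Thinning was a single random draw, so narrow gaps between thinned shares may depend on it. Genes had to be seen in at least 10% of either class to be ranked. List medians were taken over every member with a UMI in DMSO cells, in place of the same 10% limit that the plan for alternatives assumed, because that limit selects members that are high in 1 class. This was decided after the data were seen, and the medians with the limit are given below. Scrublet was run in scanpy 1.11.5 with python 3.11.15, and few calls means that doublets may remain.

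Named genes were the 15 highest and lowest with a mean of at least 0.5 per 10000 in either class, all detected Notch targets, receptors, ligands and secretory regulators, Prox1 and Lgr5, and leading members of other lists. Members and lists were chosen with earlier results of these data known. The N box and GGCGCC searches and the exclusion of endocrine factor cells were chosen after seeing the data. Calculations were checked on simulated data.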

Additional observations from a re-analysis of the deposited data

Results flagged for a closer look

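Msx1, a homeobox gene, changed in opposite directions in the libraries. It was higher in DBZ Hes1-zero cells, at 1.57 per 10000 against 0.506 in DBZ Hes1-high cells, a log2 change of 1.55. It was lower in DMSO Hes1-zero cells, at 0.662 per 10000 against 1.35 in DMSO Hes1-high cells, a log2 change of −0.97. Without secretory-marker cells the changes were 0.73 in DBZ and −1.29 in DMSO cells. The difference was not tested, since each treatment is 1 library.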

How the results depend on the processing

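The main counts were 139 genes higher and 150 lower past 1.5-fold. The higher count was 241 with cells thinned to 5000 UMIs, 217 and 30 with pseudocounts of 0.01 and 0.5, 336 with genes in at least 1% of cells, 90 without secretory-marker cells and 81 when cells with an endocrine factor UMI were also left out. The lower count was 402 thinned, 408 in cells with at least 10000 UMIs, 346 and 10 with those pseudocounts, 238 with the 1% limit, 235 without secretory-marker cells at matched depth and 231 without endocrine factor cells as well. The causes of these shifts were not tested.

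The enteroendocrine median of 2.15 was 1.51 in cells with at least 10000 UMIs, 3.69 and 0.62 with pseudocounts of 0.01 and 0.5, 3.09 over members seen in at least 10% of cells, 0.22 without secretory-marker cells, 0.21 at matched depth and −0.049 without endocrine factor cells as well. The Paneth median of 0.63 was 1.75 with only the members that 10% of cells showed and 0.024 without secretory-marker cells. The BMP response median ranged from −0.79 to −0.16 and the Notch target median from −0.27 to −0.06.

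Without secretory-marker cells the change reversed for Chgb (−0.24), Defa21 (−0.035), Ghrl (−0.076) and Sct (−1.0), and at matched depth for Chgb (−0.26), Ghrl (−0.14) and Sct (−1.07). With endocrine factor cells also left out it was −0.16 for Chga, −0.235 for Chgb, −0.10 for Cpe, −0.018 for Defa21, −0.070 for Ghrl, −0.032 for Hmgn3, −0.049 for Pcsk1n and −1.07 for Sct. In cells with at least 10000 UMIs it was −0.076 for Ghrl, −0.35 for H19 and −0.34 for Sct, and against all DMSO cells with a Hes1 UMI it was −0.42 for Reg3g. These exclusions remove the cells that carry the genes. For the other reversals the cause was not tested. No paired analysis was possible because each treatment is 1 library and both classes come from the same one.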
